A study of Rattus norvegicus with 18 samples.

Results

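Conjugation joins a polar group to drugs, hormones, bilirubin, bile acids and reactive products so that they can leave the liver in bile or urine. Glutathione S-transferases (GST) add glutathione to electrophiles, UDP-glucuronosyltransferases (UGT) add glucuronic acid, and sulfotransferases (SULT) add sulfate from the donor PAPS. Around birth the work of the placenta and the mother passes to the liver of the newborn, and the glucuronidation of bilirubin is known for being immature in this period.

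The genes described here are those of the rat GST, UGT and SULT families: every transcript cluster (a probe set covering a whole gene) whose single gene symbol on the platform began with Gsta, Gstm, Gstp, Gstt, Gstk, Gsto, Ugt1, Ugt2, Sult1 or Sult2. The rule found 41 genes, in 43 clusters, of 18926 genes measured, and where a gene had several clusters the brightest was used. They were 6 Gsta, 7 Gstm, 8 Gstp, Gstt, Gstk and Gsto genes, 9 Ugt2, 7 Sult1 and 4 Sult2 genes. No cluster with a single Ugt1 symbol was found, so the Ugt1 enzymes, which include the one that acts on bilirubin, enter no test.

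RNA had been taken from livers of Sprague Dawley rats, an outbred strain, at 6 ages and run on 18 Affymetrix arrays, 3 per age. The earliest age was embryonic day 21 (E21), and the others followed birth by 30 min, 4 h, 12 h, 1 day or 7 days. The fetuses had been taken by C-section and killed before they breathed, whereas the later ages followed births that were watched, so age and mode of delivery cannot be told apart between them. The 3 samples of an age came from different dams. How many pups made up a sample and their sex were not given in the labels. No treatment or genetic change was involved.

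Values are log2 of the deposited linear intensities, and changes are later minus earlier age with the moderated standard error of limma. The deposited scale reaches 999969, and on each array at least 272 features lay above the limit of a 16-bit scanner, so the relation of these log2 changes to the scanner's signal is not known. The threshold was an adjusted p of 0.05 in limma (Benjamini-Hochberg, over all 18926 genes). Readings up to 6.72, the highest among 309 readings of 19 neuron and pancreas genes taken to be silent, are called dim. The 7 days readings of the pancreas genes were not used for this limit. The reading of 6.72 was that of Ctrb1, a pancreas gene, on E21 replicate 1. Of the 41 genes, 29 had at least 1 age mean above 6.72 and 12 had none.

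The tissue label was checked against markers before the comparisons. None of the 9 hepatocyte markers matched was dim throughout an age. Their summed intensity was 3650000 to 3980000 per array at 7 days and 3800000 to 3830000 at E21. Alb (means of 19.93 at E21 and 19.92 at 7 days) and Fgb (19.89 and 19.88) lay near the top of the deposited scale. The sum could therefore change little, and it does not measure hepatocyte content. Kidney tubule markers, which matter here because kidney also expresses many of these enzymes, were dim for 7 of 7 genes at every age. Intestine epithelium markers were dim for 7 of 7 genes at 7 days, but at 1 day Apoa4 averaged 9.74 and Fabp2 8.96. Of 6 adrenal cortex markers 5 were dim at every age, while Cyp17a1 averaged 15.18 at E21 and 18.31 at 7 days. The source of these transcripts was not tested. The 7 days replicate 3 array carried pancreas transcripts: 10 of 12 pancreas genes were above 6.72 there, up to 17.80 for Ctrb1, while on no other array was any above 7.15. Ddx3y, a Y-linked gene, read 12.54 to 13.15 on 3 of 3 E21 arrays but on 1 of 3 at 30 min, 2 of 3 at 4 h, 2 of 3 at 12 h, 1 of 3 at 1 day and 1 of 3 at 7 days, and 5.24 to 5.70 on the others. The calls of the 41 genes at 7 days were therefore also refitted without 7 days replicate 3. The counts of the other gene lists at 7 days include that array. Tests were also repeated with the Ddx3y level as a covariate.

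Over all ages 15 of the 41 genes (36.6%) passed the moderated F test, against 31.3% of all genes. At 30 min 0 genes passed, here as in the whole table (0%). At an unadjusted p under 0.05 there were 7 of 41 (17.1%) at that age, against 7.35% of all genes, and with array weights again 0 passed. At 4 h 1 gene was lower and none higher (2.44%, against 4.71% of all genes, 2.91% higher and 1.81% lower). At 12 h 2 were lower and none higher (4.88%, against 5.94%, 3.86% higher and 2.08% lower). At 1 day 2 genes were higher and 4 lower (14.6%, against 5.08%, 3.37% higher and 1.71% lower). At 7 days 8 genes were higher and 2 lower than at E21 (24.4%, against 22.8%), and 8 were higher and 1 lower than at 1 day (22.0%, against 18.2%). Genes with no age mean above 6.72 gave 1 of the higher calls against E21. In the comparison with 1 day they gave 2 of the higher calls and the 1 lower call. The shares over all ages and at 7 days were close to those of all genes. With 1 array of the 2 ages left out, the counts were 0 to 4 at 4 h (0 without 4 h replicate 2, 4 without 4 h replicate 3), 1 at 12 h in each such fit and 2 to 4 at 1 day.

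Split by direction, 12.8% of all genes were higher and 10.0% lower at 7 days than at E21, and 8.15% were higher and 10.0% lower at 7 days than at 1 day. The median change of the 41 genes was 0.12 at 7 days against E21, beside 0.01 for all genes, with single genes between −1.78 and 4.57. The comparisons with E21 share the same 3 fetal arrays.

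**Figure D1:**
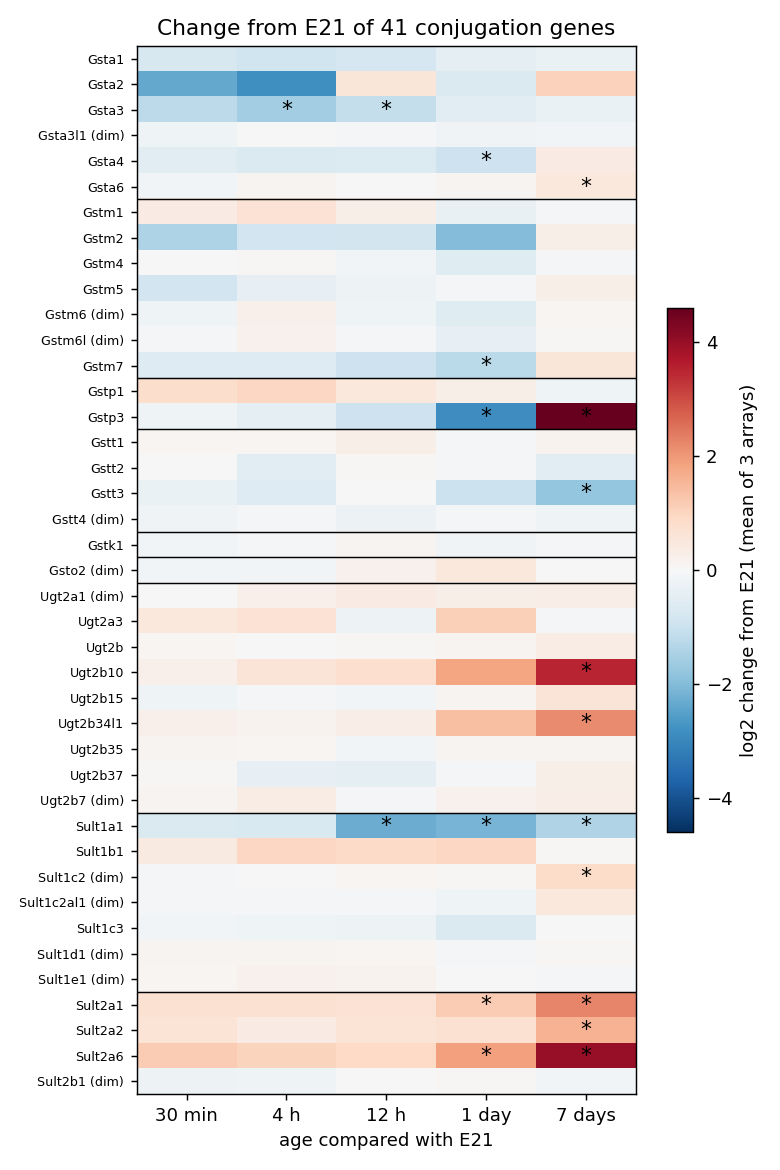
Mean log2 change from E21 of the 41 GST, UGT and SULT genes (rows, by family) at each later age (columns). Asterisks mark adjusted p under 0.05 and "(dim)" the 12 genes with no age mean above 6.72. The strongest colours belong to Gstp3, Sult2a6 and Ugt2b10 at 7 days.

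The Sult2a enzymes sulfate hydroxysteroids such as DHEA and, in rodents, bile acids. Of the 4 Sult2 genes 3 passed as higher at 7 days than at E21, Sult2a6, Sult2a1 and Sult2a2, beside 12.8% of all genes. The median fitted change of the 4 was 1.92, and 0.85 with dim arrays set to 6.72. Sult2b1, whose human counterpart sulfates cholesterol, was dim at 4.42 to 5.07 on all arrays and changed by −0.13.

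Log2 readings of Sult2a6 (TC0100004842.rn.1) were 13.00, 12.06 and 13.11 at E21, 13.41, 14.43 and 13.81 at 30 min, and 13.62, 13.66 and 13.97 at 4 h. Later they were 14.00, 13.34 and 13.53 at 12 h, 13.96, 14.33 and 15.59 at 1 day, and 16.64, 17.31 and 16.28 at 7 days. All postnatal arrays lay above the 3 E21 arrays, and the 7 days arrays lay above every other array. The change at 7 days against E21 was 4.02 ± 0.40 (adjusted p = 4.88e-06), a 16.2-fold higher intensity. It was 2.12 ± 0.40 against 1 day (adjusted p = 0.00161). At 1 day against E21 it was 1.90 ± 0.40 (adjusted p = 0.0125), a call lost without E21 replicate 2 (1.57, adjusted p = 0.0694). The changes of 1.16 at 30 min, 1.03 at 4 h and 0.90 at 12 h did not pass (adjusted p = 0.51, 0.177 and 0.247).

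Sult2a1 (TC0100004837.rn.1) was read at 6.11, 5.49 and 6.07 at E21, 6.18, 6.79 and 6.82 at 30 min, and 6.53, 6.73 and 6.49 at 4 h. At the later ages it gave 6.60, 6.45 and 6.64 at 12 h, 6.42, 6.73 and 8.04 at 1 day, and 8.05, 8.24 and 8.13 at 7 days. All E21 arrays were dim, whereas the 7 days arrays lay above all others, the nearest being 1 day replicate 3 at 8.04. The fitted change at 7 days against E21 was 2.25 ± 0.31 (adjusted p = 8.39e-05), at least 1.42 when dim arrays are set to 6.72. Against 1 day it was 1.08 ± 0.31 (adjusted p = 0.0225), and at 1 day against E21 1.17 ± 0.31 (adjusted p = 0.0379, at least 0.44). Both of these depended on single arrays. The rise at 1 day was 0.68 without 1 day replicate 3 and 0.97 to 1.28 without an E21 replicate, and did not pass in any of these 4 fits (adjusted p up to 0.171). It was 0.96 with the Ddx3y covariate (adjusted p = 0.126). The difference from 1 day was lost without 1 day replicates 1 or 2 (0.76 and 0.91) and without 7 days replicates 2 or 3 (1.03 and 1.08), with adjusted p up to 0.107.

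For Sult2a2 (TC0100004839.rn.1) the readings were 5.36, 4.97 and 5.91 at E21, 5.82, 6.14 and 6.15 at 30 min, and 5.73, 5.81 and 5.81 at 4 h. Those that followed were 6.38, 5.75 and 6.01 at 12 h, 5.47, 5.79 and 7.09 at 1 day, and 6.79, 7.50 and 6.74 at 7 days. Only the 7 days arrays and 1 day replicate 3 stood above 6.72. The change at 7 days against E21 was 1.59 ± 0.34 (adjusted p = 0.00312), at least 0.29 with dim arrays set to 6.72. On 1 day replicate 3 all 3 of these Sult2a genes were at the highest of the 3 readings of that age, and on E21 replicate 2 all 3 were at the lowest. The calls of Sult2a6, Sult2a1 and Sult2a2 at 7 days against E21 held without any single array of the 2 ages and with the Ddx3y covariate, with changes of 3.79, 2.05 and 1.44 under the covariate.

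The 3 genes lie on chromosome 1, with 1 protein-coding gene between Sult2a6 and Sult2a1 and none between Sult2a1 and Sult2a2. Their promoters are shown because all 3 genes were higher at 7 days (RefSeq, GRCr8, minus strand, 250 bases before to 50 after the start, 5′ to 3′). Capitals mark an inverted repeat without spacer, the half-sites GGGTCA and TGAACT joined, a kind of element known in rodent Sult2a genes to be bound by the bile acid receptor FXR and by PXR with RXR. Both strands were searched after the sequences had been read. It occurred in 8 of 27457 promoters of the table (0.0291%), and in 3 of the 37 promoters matched to these 41 genes. Because it was chosen after these Sult2a promoters had been read, the comparison of these counts is no test. Chromosome positions are chr1:84097759-84098058 for Sult2a6, chr1:84638898-84639197 for Sult2a1 and chr1:85104483-85104782 for Sult2a2.
Sult2a6: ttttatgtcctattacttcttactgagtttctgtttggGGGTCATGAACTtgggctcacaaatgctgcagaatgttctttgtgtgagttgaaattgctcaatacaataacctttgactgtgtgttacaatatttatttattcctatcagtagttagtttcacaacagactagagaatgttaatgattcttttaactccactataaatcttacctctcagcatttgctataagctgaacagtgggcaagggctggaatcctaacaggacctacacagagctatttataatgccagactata
Sult2a1: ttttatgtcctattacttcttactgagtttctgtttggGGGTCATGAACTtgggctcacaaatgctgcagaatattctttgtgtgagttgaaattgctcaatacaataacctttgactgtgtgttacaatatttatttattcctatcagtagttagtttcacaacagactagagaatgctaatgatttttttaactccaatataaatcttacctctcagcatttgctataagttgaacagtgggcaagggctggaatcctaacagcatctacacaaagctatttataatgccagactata
Sult2a2: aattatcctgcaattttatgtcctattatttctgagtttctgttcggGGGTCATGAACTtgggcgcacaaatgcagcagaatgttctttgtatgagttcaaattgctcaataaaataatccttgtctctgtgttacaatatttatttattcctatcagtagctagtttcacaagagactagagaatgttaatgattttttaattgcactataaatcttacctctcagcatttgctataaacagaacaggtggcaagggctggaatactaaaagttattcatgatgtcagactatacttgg
Sult2a6 and Sult2a1 had the same base at 292 of 300 positions with no gap, and Sult2a6 and Sult2a2 at 257 in a global alignment with 36 gap bases. Whether probes of such close genes also read each other's transcripts was not tested. A match is a description of letters and shows no binding here. The receptor genes Nr1h4 (FXR) and Nr1i2 (PXR) did not pass the test at any age against E21. Over all ages Nr1h4 passed the F test (adjusted p = 0.0438) and Nr1i2 did not (adjusted p = 0.919).

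**Figure D2:**
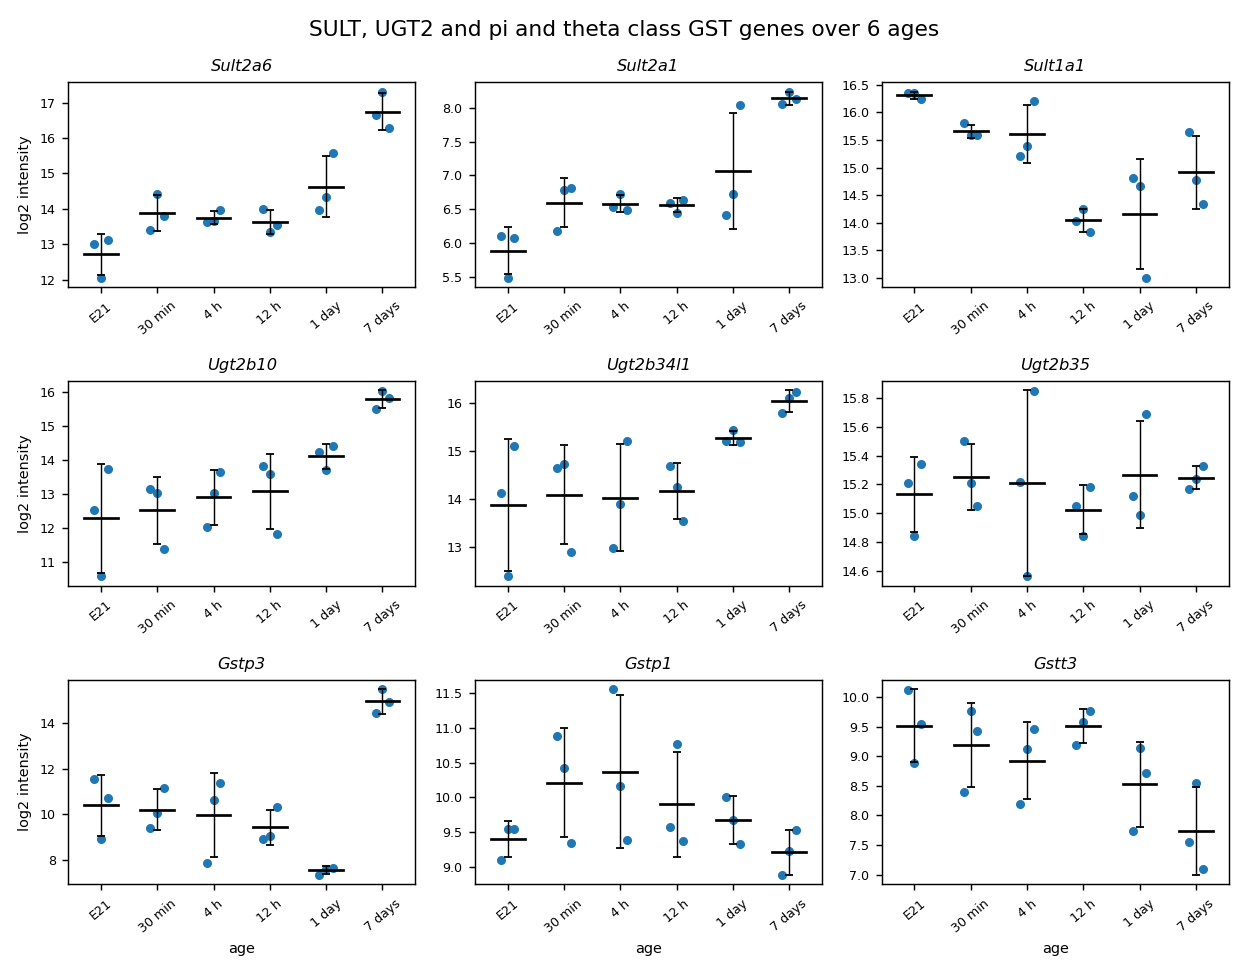
Log2 intensity of 9 SULT, UGT2 and pi and theta class GST genes at the 6 ages. Points are the 3 arrays of an age, horizontal bars means and whiskers SD. Sult2a6, Ugt2b10 and Gstp3 have all 7 days arrays above every earlier array, whereas Sult1a1 is highest at E21.

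Sult1 enzymes sulfate phenols, catecholamines, thyroid hormones and estrogens. Sult1a1, the main phenol sulfotransferase, was lower at 12 h, 1 day and 7 days than at E21. Of the 7 Sult1 genes, Sult1a1 passed as lower and Sult1c2 as higher at 7 days against E21, beside 10.0% and 12.8% of all genes. The median change of the 7 was 0.06, or 0.00 with dim arrays set to 6.72.

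Sult1a1 (TC0100006668.rn.1) read 16.35, 16.35 and 16.24 at E21, 15.80, 15.59 and 15.59 at 30 min, and 15.21, 15.40 and 16.20 at 4 h. From 12 h on it read 14.03, 14.26 and 13.84 at 12 h, 14.82, 14.66 and 13.01 at 1 day, and 15.64, 14.78 and 14.34 at 7 days. No postnatal array reached the E21 arrays, which spanned only 16.24 to 16.35, and the 12 h arrays and 1 day replicate 3 were lowest. The changes against E21 were −2.27 ± 0.40 at 12 h (adjusted p = 0.00312), −2.15 ± 0.40 at 1 day (adjusted p = 0.0065) and −1.39 ± 0.40 at 7 days (adjusted p = 0.0202). As intensity, 12 h livers had 0.207 times the E21 level. The changes of −0.65 at 30 min and −0.71 at 4 h did not pass. The calls at 12 h and 1 day held without any single array, and that at 7 days was lost without E21 replicates 1 or 2 (−1.38 and −1.37) or 7 days replicates 2 or 3 (−1.32 and −1.10), with adjusted p up to 0.0969.

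Sult1c2 (TC0900001406.rn.1), of a subfamily known in the rat for acting on N-hydroxy compounds, stayed dim. It read 4.27, 4.25 and 4.33 at E21, 4.19, 4.21 and 4.22 at 30 min, and 4.23, 4.24 and 4.36 at 4 h. Then it read 4.41, 4.25 and 4.44 at 12 h, 4.25, 4.55 and 4.21 at 1 day, and 4.85, 5.46 and 5.04 at 7 days. The 7 days arrays were above all others, with changes of 0.84 ± 0.13 against E21 (adjusted p = 0.00028) and 0.78 ± 0.13 against 1 day (adjusted p = 0.000709). Both groups were within the range of silent genes, so no fold is given. Sult1c2al1 was dim at 4.27 to 5.36 and at 7 days higher than at 1 day by 0.67 (adjusted p = 0.0128), not past without 1 day replicates 1 or 3 (0.60 and 0.55) or 7 days replicate 2 (0.58).

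Sult1e1 (TC1400000305.rn.1), the estrogen sulfotransferase, was dim on all 18 arrays, between 4.18 and 4.88. Its readings were 4.18, 4.62 and 4.64 at E21, 4.66, 4.56 and 4.50 at 30 min, and 4.64, 4.52 and 4.83 at 4 h. At the other ages they were 4.88, 4.33 and 4.76 at 12 h, 4.37, 4.69 and 4.35 at 1 day, and 4.54, 4.59 and 4.20 at 7 days. Its age means differed by 0.22 at most and no test passed. Sult1d1 (3.95 to 4.58), a rodent enzyme for catechols such as dopamine, was dim as well.

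Sult1b1, which sulfates thyroid hormones, and Sult1c3 were bright but uneven within ages. Sult1b1 read 9.84, 8.75 and 10.36 at 7 days and 8.61, 8.36 and 11.80 at E21. Sult1c3 read 11.92, 10.69 and 12.52 at 7 days and 13.04, 9.65 and 12.39 at E21. The SD at E21 was 1.92 for Sult1b1 and 1.80 for Sult1c3, larger than the range of their age means (0.96 and 0.69), and neither passed.

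Ugt2 enzymes glucuronidate steroids, bile acids, fatty acids and many drugs. Ugt2b10 and Ugt2b34l1 were higher at 7 days than at E21, 2 of the 9 Ugt2 genes, and none was lower. Of all genes 12.8% were higher and 10.0% lower. The median change of the 9 was 0.31, or 0.12 with dim arrays set to 6.72. Against 1 day 0 of 9 passed, beside 18.2% of all genes, and over all ages 1 did, Ugt2b10, beside 31.3%. The 2 genes are next to each other among the protein-coding genes of the RefSeq table.

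Readings of Ugt2b10 (TC1400002464.rn.1) came to 12.53, 10.58 and 13.73 at E21, 13.14, 13.03 and 11.37 at 30 min, and 12.03, 13.03 and 13.63 at 4 h. They then came to 13.82, 13.57 and 11.82 at 12 h, 14.23, 13.69 and 14.39 at 1 day, and 15.50, 16.02 and 15.80 at 7 days. The 7 days arrays were above all others, and the E21 arrays spread widely, with an SD of 1.59. The change was 3.49 ± 0.70 against E21 (adjusted p = 0.00203, 11.2-fold) and 1.67 ± 0.70 against 1 day (adjusted p = 0.124). The first held without any single array, from 2.64 without E21 replicate 2 to 4.22 without E21 replicate 3.

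For Ugt2b34l1 (TC1400000318.rn.1) the 7 days arrays read 15.79, 16.10 and 16.23 and the E21 arrays 14.12, 12.38 and 15.10. In between, the 1 day arrays read 15.20, 15.43 and 15.18. The 7 days arrays were above all others, and the change was 2.17 ± 0.64 (adjusted p = 0.0228). It was 1.43 without E21 replicate 2 and no longer passed (adjusted p = 0.123), nor did it without 7 days replicates 2 or 3 (2.14 and 2.08).

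On E21 replicate 2 the lowest of the 3 readings was seen for 5 of the 5 Ugt2 genes whose age means all lay above 6.72, as it was for the Sult2a genes. The changes without that array are those given above. Ugt2b35 was bright and steady, 14.56 to 15.85 over all arrays with age means within 0.24. Ugt2b37 (11.55 to 14.82) and Ugt2b15 (8.27 to 10.19) changed by 0.27 and 0.61 at 7 days and did not pass. Ugt2b (6.08 to 7.11), Ugt2a1 (5.25 to 6.51) and Ugt2b7 (4.56 to 5.31) were at or near the dim range. Ugt2a3 was dim on most arrays, but 1 day replicate 3 read 9.14, beside 5.30 and 6.73.

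The pi class has 2 genes on the array, neighbours on chromosome 1, and their readings differed. Gstp1, the placental form used in rat liver as a marker of preneoplastic foci, did not pass at any age. Gstp3 was 23.7-fold higher at 7 days than at E21 and had its lowest readings at 1 day.

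Gstp3 (TC0100007051.rn.1) gave 11.55, 8.89 and 10.70 at E21, 9.41, 10.03 and 11.16 at 30 min, and 7.87, 10.62 and 11.38 at 4 h. It went on to give 8.91, 9.04 and 10.29 at 12 h, 7.32, 7.60 and 7.65 at 1 day, and 14.43, 15.49 and 14.93 at 7 days. The 1 day arrays were below all others and the 7 days arrays above all others. The changes were 4.57 ± 0.79 at 7 days against E21 (adjusted p = 0.000591) and 7.43 ± 0.79 against 1 day (adjusted p = 1.68e-05), and both held without any single array. At 1 day against E21 the change was −2.86 ± 0.79 (adjusted p = 0.0481). This call was lost without any of E21 replicates 1 or 3 (−2.28 and −2.70) or 1 day replicates 1, 2 or 3 (−2.76, −2.90 and −2.93), with adjusted p up to 0.164, and in 5 of 10 other settings.

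Gstp1 (TC0100007050.rn.1) gave 9.10, 9.55 and 9.55 at E21, 10.88, 10.42 and 9.34 at 30 min, and 11.56, 10.17 and 9.38 at 4 h. After that it gave 9.57, 10.77 and 9.37 at 12 h, 10.01, 9.68 and 9.33 at 1 day, and 8.88, 9.22 and 9.53 at 7 days. The ages overlapped, with an SD of 1.10 at 4 h where replicate 1 read 11.56. The changes against E21 were 0.97 at 4 h (adjusted p = 0.34; 0.37 without 4 h replicate 1 and 1.46 without 4 h replicate 3, neither past) and −0.19 at 7 days. With array weights the change at 4 h was 1.49 and passed (adjusted p = 0.0476).

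The promoters of the pair are shown because Gstp3 passed and its neighbour Gstp1 did not (RefSeq, GRCr8, minus strand, chr1:210787635-210787934 for Gstp3 and chr1:210769656-210769955 for Gstp1). Capitals mark the core of the antioxidant response element, TGACNNNGC, bound by NRF2, and the core of the xenobiotic response element, GCGTG, bound by the AH receptor, on either strand and not overlapping here.
Gstp3: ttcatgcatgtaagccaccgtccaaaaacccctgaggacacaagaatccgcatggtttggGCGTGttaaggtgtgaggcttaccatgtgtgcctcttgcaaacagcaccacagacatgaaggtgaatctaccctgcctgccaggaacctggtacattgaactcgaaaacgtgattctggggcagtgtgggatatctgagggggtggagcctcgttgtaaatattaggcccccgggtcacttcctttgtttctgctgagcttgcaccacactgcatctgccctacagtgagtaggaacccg
Gstp1: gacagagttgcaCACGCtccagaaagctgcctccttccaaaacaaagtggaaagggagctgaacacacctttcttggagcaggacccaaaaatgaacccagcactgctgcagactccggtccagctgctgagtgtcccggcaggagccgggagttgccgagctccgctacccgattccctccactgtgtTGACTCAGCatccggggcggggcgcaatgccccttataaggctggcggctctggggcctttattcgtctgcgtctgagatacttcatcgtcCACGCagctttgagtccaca
The Gstp3 window held 1 xenobiotic and no antioxidant core, and the Gstp1 window 1 antioxidant and 2 xenobiotic cores. In a global alignment 159 of the 300 bases were the same. Over all 27457 promoters 12.2% held the antioxidant and 31.1% the xenobiotic core, against 6 (16.2%) and 9 (24.3%) of the 37 promoters of these families. Besides Gstp1 the antioxidant core was found in Gsta1, Gsta2, Gsta3, Gstm5 and Gstm7. The palindromic HNF1 motif, searched with 1 free base at its centre, was in none of the 37 and in 1 of all promoters.

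Theta class GSTs act on small halogenated compounds. Gstt3 (TC2000001805.rn.1) read 10.12, 8.89 and 9.54 at E21, 8.39, 9.76 and 9.42 at 30 min, and 8.20, 9.12 and 9.46 at 4 h. Its later readings were 9.19, 9.58 and 9.76 at 12 h, 7.73, 9.13 and 8.71 at 1 day, and 7.55, 8.55 and 7.10 at 7 days. The 3 arrays of 7 days were below the 3 of E21, and the change was −1.78 ± 0.47 (adjusted p = 0.0123). It no longer passed without E21 replicate 1 (−1.48) or 7 days replicate 3 (−1.47), with adjusted p up to 0.0631. Gstt1 (7.39 to 8.20) and Gstt2 (9.05 to 10.42) did not pass, and Gstt4 was dim at 4.13 to 4.67.

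Gstk1, the kappa form of mitochondria and peroxisomes, kept its age means within 0.28, from 14.78 to 15.06, with an SD of 0.14 to 0.64 within ages. Gsto2 (TC0100008078.rn.1), an omega form that reduces dehydroascorbate, was dim on all arrays. Its readings ran 5.28, 5.16 and 5.14 at E21, 5.25, 4.90 and 5.11 at 30 min, and 4.85, 5.35 and 5.02 at 4 h. They continued 5.22, 5.65 and 5.33 at 12 h, 5.82, 5.57 and 5.66 at 1 day, and 5.26, 5.40 and 4.91 at 7 days. It was lower at 7 days than at 1 day, with a change of −0.49 ± 0.16 (adjusted p = 0.0381), inside the range of silent genes, and not past without 1 day replicates 1 or 3 (−0.43 and −0.51) or 7 days replicates 1 or 3 (−0.53 and −0.36).

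Alpha class GSTs make up much of the GST protein of adult liver. Against E21 the medians of the 6 Gsta changes were −0.63 at 30 min, −0.79 at 4 h and −0.35 at 12 h, beside −0.01, −0.01 and 0.01 for all genes. Of the 6, Gsta3 alone passed at 4 h and at 12 h, beside 4.71% and 5.94% of all genes. At 7 days the median was 0.11, or 0.01 with dim arrays set to 6.72, and only Gsta6 passed, beside 22.8% of all genes.

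Gsta3 (TC0900000352.rn.1), whose human counterpart isomerises steroids, was read at 11.38, 11.84 and 11.70 at E21, 10.38, 10.87 and 10.06 at 30 min, and 9.52, 9.64 and 10.97 at 4 h. It was then read at 10.60, 10.41 and 10.62 at 12 h, 11.16, 11.19 and 11.10 at 1 day, and 11.70, 11.21 and 11.13 at 7 days. Every array from 30 min to 12 h was below the lowest E21 array. The change was −1.60 ± 0.30 at 4 h (adjusted p = 0.00759, 0.33 times E21) and −1.10 ± 0.30 at 12 h (adjusted p = 0.0443). Against E21 it was −1.20 at 30 min (adjusted p = 0.323) and −0.29 at 7 days. The call at 4 h was lost without 4 h replicate 2 (−1.40, adjusted p = 0.0514). That at 12 h was lost without any 1 of E21 replicates 1, 2 or 3 or 12 h replicates 1, 2 or 3, with adjusted p up to 0.156, and with the Ddx3y covariate (−1.07, adjusted p = 0.0703).

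Gsta4 (TC0800001158.rn.1), the form that clears the lipid peroxidation product 4-hydroxynonenal, gave 10.56, 10.92 and 10.81 at E21, 10.32, 10.31 and 10.08 at 30 min, and 9.57, 10.02 and 10.65 at 4 h. For the other ages it gave 10.26, 10.09 and 10.07 at 12 h, 9.83, 9.69 and 9.90 at 1 day, and 11.33, 11.07 and 10.96 at 7 days. The 1 day arrays were below all E21 arrays and the 7 days arrays above all others. The changes were −0.96 ± 0.20 at 1 day against E21 (adjusted p = 0.0117), a call lost without E21 replicate 2 (−0.87, adjusted p = 0.06), and 1.31 ± 0.20 at 7 days against 1 day (adjusted p = 0.000299). The second held without any single array. At 7 days against E21 the change was 0.36 and did not pass.

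The widest spread of the family belonged to Gsta2 (TC0800002982.rn.1), a main adult form. It read 15.39, 17.01 and 15.97 at E21, 11.72, 15.29 and 14.23 at 30 min, and 9.94, 14.62 and 15.32 at 4 h. Later it read 16.39, 17.39 and 16.26 at 12 h, 15.62, 13.28 and 17.51 at 1 day, and 15.97, 18.19 and 17.43 at 7 days. At 4 h all 3 arrays were below the E21 arrays, but they ran from 9.94 to 15.32, and the change of −2.83 ± 1.29 did not pass (adjusted p = 0.269). It was −1.15 without 4 h replicate 1 and −3.84 without 4 h replicate 3, neither past, −4.21 without the 3 arrays that stood apart in earlier results (replicate 1 at E21, replicate 3 at 30 min and at 4 h), not past, and −4.52 with array weights, which passed (adjusted p = 0.0321). Gsta1 changed by −0.74 at 30 min, −0.90 at 4 h (adjusted p = 0.0519) and −0.78 at 12 h, and did not pass. The 4 h replicate 1 array held the lowest of the 3 readings of its age for 4 of the 4 Gsta genes whose age means all lay above 6.72 (Gsta1, Gsta2, Gsta3 and Gsta4). Without 4 h replicate 3, Gsta1 at 4 h was −1.28 and passed (adjusted p = 0.000559), as it did in 4 of 10 other settings.

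Gsta6 (TC0900001715.rn.1) lay at the edge of the dim range with 6.30, 6.33 and 6.16 at E21, 6.24, 6.02 and 6.11 at 30 min, and 6.36, 6.41 and 6.42 at 4 h. It went on with 6.04, 6.47 and 6.30 at 12 h, 6.57, 6.28 and 6.36 at 1 day, and 6.75, 6.68 and 6.76 at 7 days. The 7 days arrays were the highest 3, and the change of 0.47 ± 0.11 passed (adjusted p = 0.00563), but it comes to 0.02 when dim readings are set to 6.72. Gsta3l1 was dim at 4.20 to 4.76.

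**Figure D3:**
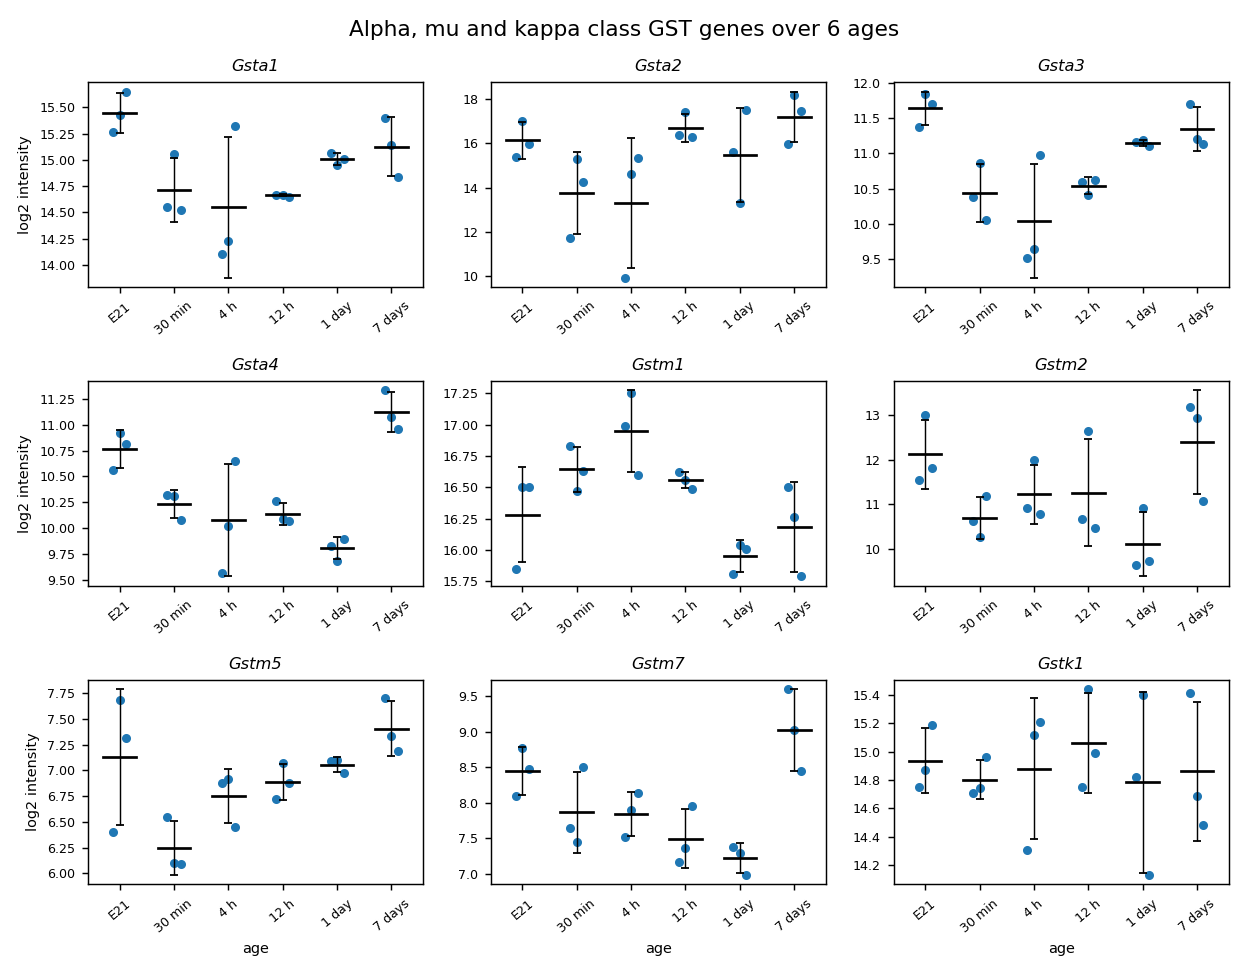
Log2 intensity of 9 alpha, mu and kappa class GST genes at the 6 ages. Points are the 3 arrays of an age, bars means and whiskers SD. Gsta3 has its lowest mean, 10.04, at 4 h, Gsta4, Gstm2 and Gstm7 have theirs at 1 day, and the means of Gstk1 lie between 14.78 and 15.06.

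Mu class GSTs act on epoxides and many other electrophiles. At 1 day the 7 Gstm genes had a median change of −0.56 against E21. Gstm7 alone passed the test, beside 5.08% of all genes. At 7 days the median of the 7 was 0.09, or 0.06 with dim arrays set to 6.72. Against E21 0 of 7 passed, beside 22.8% of all genes, while against 1 day Gstm7 and Gstm2 were higher, beside 8.15%.

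Gstm7 (TC0200004449.rn.1) had readings of 8.10, 8.77 and 8.47 at E21, 7.64, 7.44 and 8.51 at 30 min, and 7.51, 7.89 and 8.13 at 4 h. The next ones were 7.16, 7.36 and 7.96 at 12 h, 7.38, 7.29 and 6.98 at 1 day, and 9.60, 9.02 and 8.44 at 7 days. The 1 day arrays were below the E21 and 7 days arrays. The changes were 1.80 ± 0.32 at 7 days against 1 day (adjusted p = 0.000971), held without any single array, and −1.23 ± 0.32 at 1 day against E21 (adjusted p = 0.0353). The second was lost without E21 replicates 2 or 3 (−1.07 and −1.22) and without 1 day replicates 1, 2 or 3 (−1.31, −1.27 and −1.11), with adjusted p up to 0.152, and with the Ddx3y covariate (−1.35, adjusted p = 0.0505).

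Gstm2 had readings of 13.18, 12.92 and 11.07 at 7 days, against 9.65, 10.93 and 9.75 at 1 day. These groups did not overlap, and the change was 2.28 ± 0.63 (adjusted p = 0.0198). It failed without 1 day replicates 1 or 3 (2.05 and 2.10) or 7 days replicates 1 or 2 (1.88 and 2.02), with adjusted p up to 0.088. It averaged 10.11 ± 0.71 at 1 day and 12.11 ± 0.77 at E21 (SD, n = 3 each), which did not pass (adjusted p = 0.0856), though it did with array weights (adjusted p = 0.0477) and with the Ddx3y covariate (−2.76, adjusted p = 0.00817).

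Gstm1 (TC0200004454.rn.1), a main mu form of adult rat liver, passed over all ages (adjusted p = 0.0136) but at no single age against E21 in the fit of all arrays. It had 15.85, 16.50 and 16.50 at E21, 16.83, 16.47 and 16.63 at 30 min, and 16.99, 17.25 and 16.60 at 4 h. In the later livers it had 16.62, 16.56 and 16.49 at 12 h, 15.81, 16.04 and 16.01 at 1 day, and 16.50, 16.26 and 15.79 at 7 days. Its highest mean was 16.95 at 4 h, a change of 0.66 from E21 (adjusted p = 0.0796), and its lowest 15.95 at 1 day. The change at 4 h passed without 4 h replicate 3 (0.84, adjusted p = 0.0274) and with array weights (0.64, adjusted p = 0.0296).

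Gstm5 (TSUnmapped00000115.rn.1) also passed over all ages only (adjusted p = 0.0279), close to the dim range. It stood at 6.40, 7.68 and 7.31 at E21, 6.55, 6.10 and 6.09 at 30 min, and 6.88, 6.92 and 6.45 at 4 h. It then stood at 6.72, 7.07 and 6.88 at 12 h, 7.09, 7.10 and 6.97 at 1 day, and 7.70, 7.33 and 7.19 at 7 days. All 30 min arrays were dim, and the change of −0.88 at 30 min passed only without E21 replicate 1, the array that was lowest at E21 (−1.25, adjusted p = 0.0388). Gstm4 (9.77 to 11.00) did not pass. Gstm6 (5.76 to 7.13) was dim on most arrays and Gstm6l (5.56 to 6.54) on all.

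Pairs of isoforms named for their textbook roles were compared within arrays, 7 days against E21, by a two-sided exact permutation test whose smallest p is 0.1 with 3 arrays against 3. Of 6 pairs 4 had both genes. The difference Sult2a1 minus Sult1a1, a hydroxysteroid against a phenol enzyme, was higher at 7 days by at least 2.81, with the dim Sult2a1 readings of E21 set to 6.72 (exact p = 0.1, 0.2 after adjustment over the 4 pairs), and the arrays did not overlap. Sult1e1 minus Sult1a1 gets no value, because Sult1e1 was dim at both ages (exact p = 0.1 on the readings as they are, adjusted 0.2). For Gsta2 minus Gstp1, an adult against a fetal GST, the shift was 1.27 (exact p = 0.2, adjusted 0.267), and for Gstm1 minus Gstp1 it was 0.09 (exact p = 0.8, adjusted 0.8). None could pass the 0.05 threshold at this size.

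Conjugation needs its donors. UDP-glucuronic acid is made by Ugp2 and Ugdh and carried into the endoplasmic reticulum by Slc35d1, PAPS is made by Papss1 and Papss2 from sulfate, and glutathione is made by Gclc with Gclm and then Gss from cysteine that Cbs and Cth supply. In a list of 20 such genes 5 were higher and 4 lower at 12 h than at E21, where 3.86% of all genes were higher and 2.08% lower. At 7 days 4 of the 20 were higher and 3 lower, beside 12.8% and 10.0% of all genes.

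For UDP-glucuronic acid, Ugdh averaged 8.45 ± 0.29 at 12 h and 10.17 ± 0.36 at E21 (SD, n = 3 each), a change of −1.72 ± 0.31 (adjusted p = 0.00385). It was also lower at 7 days, with a change of −1.20 ± 0.31 (adjusted p = 0.0116; −1.02 and −1.09, not past, without E21 replicate 3 or 7 days replicate 2). Ugp2 changed by −1.82 ± 0.34 at 12 h (adjusted p = 0.00458) and did not pass at 7 days. Slc35d1 moved the other way, by 0.99 ± 0.14 at 12 h (adjusted p = 0.000877) and 1.00 ± 0.14 at 7 days (adjusted p = 0.000137), and so did Slc35b1, a nucleotide transporter of the same membrane (1.44 ± 0.20 at 7 days, adjusted p = 0.000108).

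For sulfate, Slc26a1, a sulfate transporter, averaged 13.56 ± 0.11 at 12 h and 11.21 ± 0.45 at E21 (SD, n = 3 each), a change of 2.35 ± 0.38 (adjusted p = 0.00175). Papss2, the main PAPS synthase of liver, did not pass against E21 at any age. It was higher at 7 days than at 1 day by 1.20 ± 0.33 (adjusted p = 0.0198; 0.77 without 1 day replicate 3 and 1.01 without 7 days replicate 1, neither past). Papss1 was lower at 7 days than at E21, with a change of −0.54 ± 0.11 (adjusted p = 0.00212).

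On the glutathione side Gclc, the catalytic subunit of the first and limiting step, had 12.45, 12.62 and 13.50 at 1 day and 13.56, 13.47 and 12.76 at 7 days, against 11.09, 10.71 and 11.19 at E21. Its 7 days arrays were all above its E21 arrays, with a change of 2.27 ± 0.26 (adjusted p = 1.55e-05), and at 1 day it was 1.86 ± 0.26 (adjusted p = 0.000826). Gss was higher at 7 days by 1.59 ± 0.28 (adjusted p = 0.000631), whereas Gclm did not pass. Cth was lower, with changes of −2.66 ± 0.46 at 12 h (adjusted p = 0.00264), −2.89 ± 0.46 at 1 day (adjusted p = 0.00232) and −1.66 ± 0.46 at 7 days (adjusted p = 0.0161). The last was lost without E21 replicate 2 (−1.49) or 7 days replicate 3 (−1.22). Cbs was lower at 12 h, with a change of −1.98 ± 0.53 (adjusted p = 0.0399), and did not pass at 1 day or 7 days (−1.31 and −0.26).

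**Figure D4:**
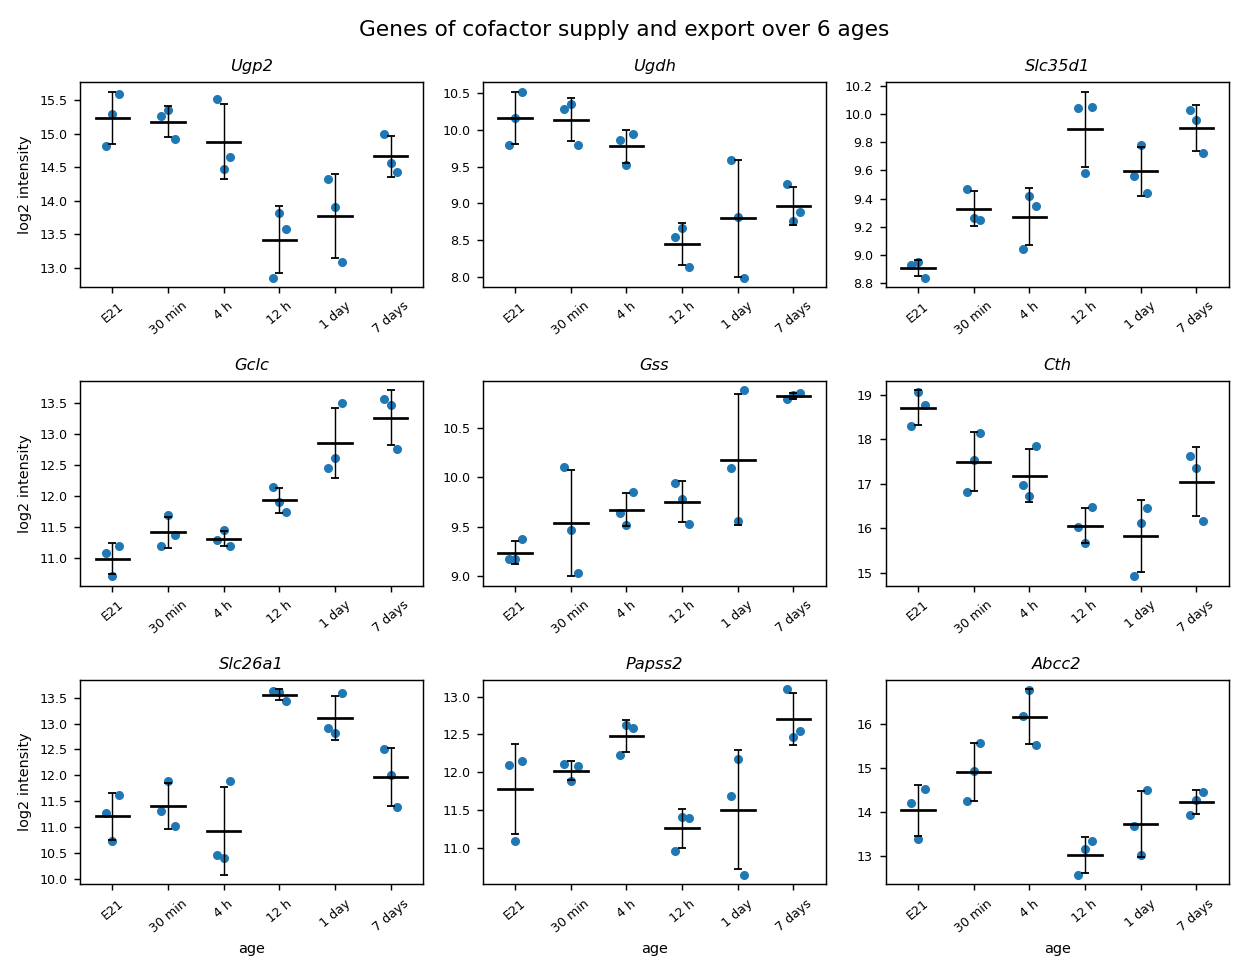
Log2 intensity of 9 genes of cofactor supply and conjugate export at the 6 ages, points being arrays, bars means and whiskers SD (n = 3). Ugdh, Ugp2 and Cth are lower at 12 h than at E21, Slc35d1, Gclc and Gss are higher at 7 days, and Slc26a1 peaks at 12 h and Abcc2 at 4 h.

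Conjugates leave hepatocytes through ABC transporters. Of 9 matched genes of an export list, not all of them ABC transporters, 1 was higher and 2 were lower at 7 days. Of all genes 12.8% were higher and 10.0% lower. The higher gene was Slco2b1, and the lower ones were Rdx and Abcc4. Abcc4 changed by −0.57, or −0.11 with dim arrays set to 6.72. Abcc2, the pump of the bile canaliculus, read 16.17, 16.77 and 15.52 at 4 h, against 14.21, 13.38 and 14.51 at E21. The 4 h arrays were all higher, by 2.12 ± 0.42 (adjusted p = 0.0102; 1.80 and 1.81, not past, without E21 replicate 2 or 4 h replicate 2), and at 7 days the change was 0.19. Slco2b1, an uptake carrier, was higher at 7 days by 1.69 ± 0.25 (adjusted p = 0.000175), and Rdx, the linker that anchors Abcc2, was lower, with changes of −1.40 ± 0.17 at 12 h (adjusted p = 0.000194) and −0.69 ± 0.17 at 7 days (adjusted p = 0.00751). Abcc3, the basolateral pump, was 1.32 ± 0.39 higher at 7 days than at 1 day (adjusted p = 0.0272), not past without 1 day replicate 3 (1.02) or 7 days replicates 1 or 2 (1.15 and 1.28).

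Among 19 matched regulators 4 were higher and 2 lower at 7 days than at E21, beside 12.8% and 10.0% of all genes. Hnf4a, a hepatocyte factor, was higher by 1.01 ± 0.26 (adjusted p = 0.0113; 0.89, not past, without E21 replicate 2). Bach1, a repressor at antioxidant elements, was lower, with a change of −1.05 ± 0.17 (adjusted p = 0.000316). Nfe2l2, which encodes NRF2, was higher by 0.81 ± 0.24 (adjusted p = 0.0204), and not past without E21 replicates 1 or 2 (0.80 and 0.67) or 7 days replicate 3 (0.72). The drug receptors Nr1i2 and Nr1i3 (CAR) passed at no age: Nr1i2 averaged 12.70 ± 0.45 at 7 days and 12.99 ± 0.29 at E21, and Nr1i3 averaged 8.25 ± 0.34 at 7 days and 7.88 ± 0.86 at E21 (SD, n = 3 each). Ahr, the AH receptor, was higher at 4 h by 1.26 ± 0.30 (adjusted p = 0.0267), but by 0.83 without E21 replicate 2, 1.23 without 4 h replicate 1 and 1.10 without 4 h replicate 3, none past.

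Of 14 other conjugating and partner enzymes 6 were higher and 1 lower at 7 days, beside 12.8% and 10.0% of all genes. Among the higher ones Hnmt was dim on all arrays and changed by 0.37, or 0.00 with dim arrays set to 6.72. Baat, which joins bile acids to taurine or glycine, was higher by 3.38 ± 0.52 (adjusted p = 0.000247) and Tpmt, a methyltransferase, by 1.30 ± 0.24 (adjusted p = 0.00104). Mgst3, a microsomal GST, was lower, with a change of −1.91 ± 0.35 (adjusted p = 0.00103). Por, the electron donor of cytochromes P450, was higher at 12 h by 3.00 ± 0.41 (adjusted p = 0.000529). Ephx1 was higher by 1.33 ± 0.36 at 12 h (adjusted p = 0.0398) and by 1.24 ± 0.36 at 7 days (adjusted p = 0.0201). Of 11 genes of deconjugation and bilirubin formation 3 were higher and 3 lower at 7 days, beside 12.8% and 10.0% of all genes. Ggt1, which breaks down glutathione and is a fetal liver enzyme, was lower, with a change of −2.02 ± 0.29 (adjusted p = 0.000133) with all 7 days arrays dim, so that only a drop of 0.54 or more is measured (dim arrays set to 6.72). Blvrb, a biliverdin reductase, was lower, with a change of −1.20 ± 0.26 (adjusted p = 0.00368) and Gusb, beta-glucuronidase, was higher by 0.97 ± 0.18 (adjusted p = 0.000945). Sts was lower, with changes of −1.13 ± 0.22 at 1 day (adjusted p = 0.00925) and −0.77 ± 0.22 at 7 days (adjusted p = 0.0213).

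Markers of other cell types changed along with the 7 days results, where 12.8% of all genes were higher and 10.0% lower than at E21. Erythroid markers were lower for 8 of 8 matched genes, with a summed intensity of 9420 to 21200 at 7 days and 172000 to 332000 at E21, and 2 of the 8 were dim on all 7 days arrays. Macrophage markers (8 of 10) and endothelial markers (8 of 10) were higher, with summed intensities of 44200 to 62500 and 71700 to 89600 at 7 days, against 18600 to 24100 and 25800 to 37700 at E21. Stellate markers were higher for 4 of 10, with sums of 25600 to 40300 at 7 days and 11500 to 17100 at E21. Of the 9 hepatocyte markers 3 were higher, such as Apoc3 by 1.79, and 1 was lower, Cps1. In whole liver, fewer cells of a type and less RNA per cell cannot be told apart, and the part of these shifts in the results was not tested. Without 7 days replicate 3, the array with pancreas RNA, 7 of the 41 genes passed at 7 days against E21. Gstt3, Sult1a1 and Ugt2b34l1 dropped out, and the changes of Sult2a6 (4.25), Gstp3 (4.58) and Ugt2b10 (3.48) stayed past the threshold. With the Ddx3y covariate 10 passed again.

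**Figure D5:**
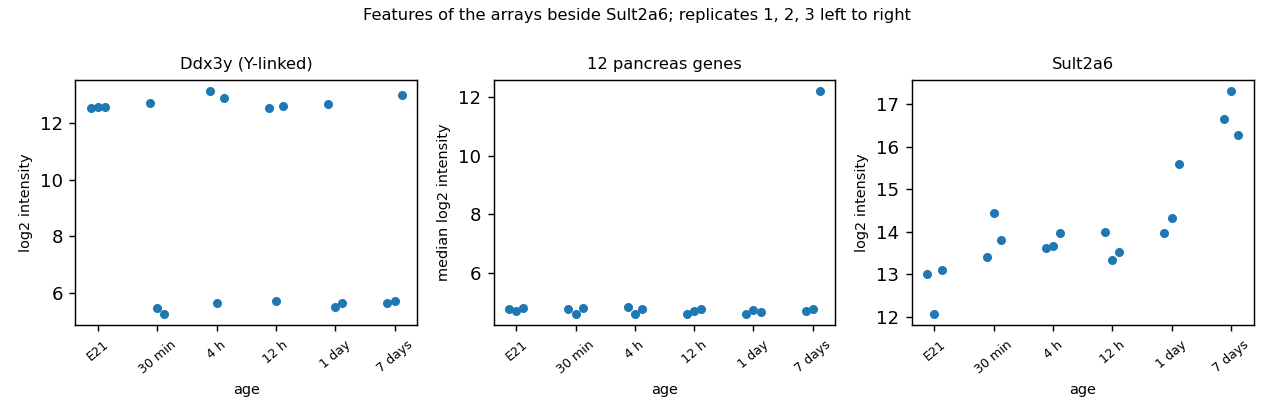
Per array, by age: log2 intensity of Ddx3y, median log2 intensity of 12 pancreas genes, and log2 intensity of Sult2a6 (points are arrays, replicates 1 to 3 from left to right). Ddx3y splits the arrays of each postnatal age, the pancreas median is high on 7 days replicate 3 only, at 12.22, and Sult2a6 is highest on the 3 arrays of 7 days.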

How the data were processed

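The series measured liver RNA of rats of 6 ages on 18 arrays, 3 per age. The authors deposited one linear intensity per transcript cluster and array. RMA and Affymetrix Expression Console 1.0 are named per the submitters' processing notes, and neither a genome build nor an annotation release is named there. Each deposited intensity was turned into log2, with no constant added and no further normalization.

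Of 24753 features 19837 had 1 gene symbol, 420 several and 4496 none. The last 2 kinds were left out of the tests, and the brightest feature of each gene was used, which gave 18926 genes. In limma 3.58.1 (R 4.3.3) each gene was fitted with a mean per age over all 18 arrays (eBayes, 12 residual and 3.05 prior degrees of freedom). Tests were two-sided, with Benjamini-Hochberg adjustment over all genes. The 3 arrays per age limit the precision, the series design gives a different dam for each array of an age, and p-values describe the spread between these samples. The script was tested on simulated data with known changes.

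The genes and lists were chosen with earlier results of these data known. Every gene of the families is named. Values on every array are given for the genes of each family past the F test with the widest ranges of age means (up to 4), and for Gstp1, Sult2a1 and Sult1e1. Gsta2 and others shown in part were chosen after their values were seen, as were the dim range, whose silent genes exclude Cel and Gfap, the Ddx3y covariate and the search for the inverted repeat. In the lists some genes with large changes past a test were named, besides Ugdh, Papss2, Gclc, Abcc2, Nr1i2, Nr1i3, Ahr and Nfe2l2. The genes named did not always have the largest changes of their list. Promoters were matched by gene ID or symbol, for 37 of 41 genes, and aligned with Biopython 1.88. The first listed start was used. Figures were drawn with matplotlib 3.10.9.

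Alternatives were quantile normalization, 16 added before log2, dim genes left out, the mean of a gene's clusters, a trended and robust prior, array weights, the replicate number as a block, the Ddx3y level as a covariate, only the ages compared, 3 arrays left out together and each array left out in turn. The labels do not say what a replicate number stands for. After subtraction of age means, arrays with the same number correlated over 0.1 in all 3 pairs of 4 h with E21 (0.107 to 0.292). This is a hint from the data, and it was seen in no other comparison made here. Correlations of 30 min with E21 were negative, −0.253, −0.107 and −0.398 for replicates 1, 2 and 3, so the hint is weak.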

Additional observations from a re-analysis of the deposited data

How the results depend on the processing

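None of the 28 calls among the 41 genes changed direction under the alternatives. Most uncalled changes were not followed in this way. The 28 calls were refitted 168 times with 1 array left out. They passed in 121 of these fits and in 47 they did not, and 14 calls passed in all of theirs. Under the other settings they passed in 253 of 276 fits, and 16 calls passed in all. The number of genes past the threshold at 4 h, 1 in the reported fit, was 3 with quantile normalization, 3 without dim genes, 6 with array weights, 3 without a trio of arrays that stood apart in earlier results (replicate 1 at E21, replicate 3 at 30 min and at 4 h), and 0 with only the 4 h and E21 arrays. It ran from 0 (without 4 h replicate 2) to 4 (without 4 h replicate 3) over single arrays. At 12 h, where 2 were reported, it was 5 with array weights, 5 without that trio, 4 with only the ages compared, 1 with the Ddx3y covariate and 1 without any single array of the 2 ages. At 1 day, where 6 were reported, it was 2 with only the ages compared and 2 to 4 without single arrays. At 30 min it was 0 under all settings but 1, Gstm5, without E21 replicate 1. With single arrays left out it was 7 to 12 at 7 days against E21, 6 to 9 against 1 day and 11 to 16 over all ages, within 1.5 times of the reported 10, 9 and 15. The cause of these differences was not tested, apart from fewer arrays in the fits that leave some out. With the replicate number as a block, the count stayed 1 at 4 h, the comparison where the numbers may pair the arrays, went to 1 at 12 h, and was 15 over all ages, 0 at 30 min, 6 at 1 day, 10 at 7 days against E21 and 9 against 1 day. The block ended the calls of Gsta3 at 12 h (adjusted p = 0.0664) and Gstm7 at 1 day (0.0526) and added Gstm2 at 1 day (0.0385), all in comparisons whose numbers are not shown to pair arrays. Quantile normalization and the added constant left the median change of all genes between −0.01 and 0.01. Of the 41 genes, 12 had no age mean above the range of silent genes, and for them no change could be measured reliably.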

Other observations

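A further 6 transcript clusters carried several symbols of these families, so no gene is named for them and they entered no test. They are given as log2 readings only.

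A cluster with 8 Ugt1 symbols (TC0900001092.rn.1) is the only view of that family here. Its age means were 8.87 at E21, 8.81 at 30 min, 8.81 at 4 h, 8.92 at 12 h, 8.88 at 1 day and 8.63 at 7 days. The 7 days arrays read 8.94, 8.44 and 8.50 and the E21 arrays 8.87, 8.72 and 9.01, which overlap.

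A cluster with 2 Sult2 symbols (TC0100004843.rn.1) read 16.09, 17.46 and 16.08 at 7 days and 14.27, 12.88 and 14.57 at E21, with no overlap. On 1 day replicate 3 it read 16.39, beside 14.14 and 14.98 on replicates 1 and 2, and on E21 replicate 2 it was the lowest of its age, as were Sult2a6, Sult2a1 and Sult2a2.

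A cluster with 2 Ugt2 symbols (TC1400000316.rn.1) had age means of 11.98 at E21, 13.85 at 30 min, 14.36 at 4 h, 14.54 at 12 h, 15.83 at 1 day and 15.43 at 7 days. The E21 arrays were spread from 9.27 on replicate 2 to 13.99 on replicate 1.

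Among the alpha class, a cluster with 2 Gsta symbols (TC0800001159.rn.1) read 8.01, 9.61 and 10.37 at 4 h and 10.32, 11.73 and 10.98 at E21, with replicate 1 the lowest at both ages. Another (TC0900001713.rn.1) had its lowest mean, 16.11, at 4 h and its highest, 17.06, at E21. The Gsto cluster (TC0100008077.rn.1) stayed between 5.75 and 6.17, inside the range of silent genes.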
